A study of Mus musculus with 7 samples.

Results

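The mouse genes named Zfp followed by a number encode mostly C2H2 zinc finger proteins, and the chromatin accessibility of their promoters was compared between livers of young and aged mice. Members were the consensus accessible regions that overlapped the 200 bp before or after any transcript start of a protein-coding gene of GENCODE release M21 with such a symbol. Genes on chromosome 4 between positions 145000001 and 148000000 were left out, which removed 18 genes and kept 376. The choice gave 343 regions of the 55680 in the table, at 325 of the 376 genes. Of all regions, 15422 overlapped the start window of some gene and 13711 that of a protein-coding gene.

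The accessibility of liver chromatin was measured by ATAC-seq, in which a transposase inserts sequencing adapters into open DNA. All animals were C57BL/6N mice, male by the study's methods. The young group was 3 samples from mice aged 3 months, and the aged group was 4 samples from mice aged 18 months. The deposited description of the series gives 3 aged animals, 1 of them sampled in 2 lobules, and the labels do not say which samples share an animal. The paper treats the aged samples as independent of each other, and the files do not settle which holds. Total counts in regions were 10384725, 25461110 and 5709327 in young samples 1 to 3. They were 11717992, 5108283, 4474652 and 8397956 in aged samples 1 to 4. The deepest sample was young 2 and the shallowest aged 3. At the median Zfp promoter the deepest sample held 573 counts and the shallowest 106, and the lowest count of any member in any sample was 5. No pair of samples of the same age was a copy of the same library, since counts differed by 2.38 to 6.06 times what counting error gives, as chi-square per degree of freedom.

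Many C2H2 zinc finger proteins carry a KRAB domain, which binds the co-repressor TRIM28. TRIM28 brings the methyltransferase SETDB1, which places trimethylation on lysine 9 of histone H3, and this silences transposable elements and imprinted loci. The genes arose by repeated tandem duplication, so many lie in clusters of related copies, while others stand alone and encode activators, cofactors or RNA-binding proteins.

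Clusters were defined by position. A gene with neighbours of the same family in a chain of 3 or more gene starts, each at most 200 kb from the next, was called clustered. Only genes with a Zfp symbol counted as neighbours, so isolated does not mean alone among related sequences. Zfp970 and Zfp808, called isolated, have near-identical copies of their regions on the same chromosome. This gave 177 clustered genes in 27 clusters, 50 genes in pairs and 149 isolated genes. Chromosome 7 held 92 of the genes, 71 of them clustered. Chromosome 17 held 46, of which 33 were clustered, and chromosome 13 held 36, of which 23 were clustered. A KRAB-like stretch was found in the proteins of 143 clustered genes (80.8%) and of 33 isolated genes (22.1%). The search is approximate, since it found none in Zfp445, a known KRAB protein. The median number of C2H2 fingers was 12 in clustered, 7 in isolated and 11.5 in paired genes.

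A promoter with an accessible region was the usual state of these genes in liver. Of the 376 genes, 325 (86.4%) had one, beside 13037 of all 21951 protein-coding genes (59.4%). Among clustered genes it was 165 of 177 (93.2%), among isolated genes 123 of 149 (82.6%) and among paired genes 37 of 50 (74.0%). The 51 genes without a region included Zfp42, also called Rex1 and known as a marker of pluripotent cells, and Zfp932. Some starts without a region lay in copies of member regions with at least 95% identity. Copies of the region of Zfp971 cover the starts of Zfp965, Zfp966, Zfp967, Zfp968, Zfp969 and Zfp973. A copy of the region of Zfp960 covers that of Zfp97. Reads with low mapping quality were removed, so a missing region there need not mean a closed promoter. Its part in the class shares was not tested. On chromosome 13, 34 of 36 genes had a region and on chromosome 7, 84 of 92. The 343 regions lay on 20 chromosomes, with 85 on chromosome 7, 41 on chromosome 17 and 34 on chromosome 13.

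Levels are given as CPM, counts scaled to a common library size by edgeR, and per kb of region where levels of genes are compared. Groups by level, and the choice of the most accessible region of a gene, use log2 CPM of the whole region without correction for length. The median Zfp promoter held 20.8 CPM per kb, beside 20.9 over all promoter regions, with an interquartile range from 12.6 to 31.4. Clustered promoters had a median of 18.8, isolated promoters 22.7 and paired promoters 20.1. The regions of clustered genes were also shorter, with a median of 1024 bp against 1301 bp for isolated genes, and lower in GC content, with a median of 53.6% against 59.2%. All promoter regions had a median GC content of 57.2%. The ratio of observed to expected CpG was 0.58 in clustered and 0.69 in isolated promoters, with 0.65 over all promoter regions.

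The highest levels were at clustered genes on chromosomes 7 and 8. Zfp78, at chr7:6362309-6363529, had 132 CPM per kb, Zfp963 85.2 and Zfp866 80.1. The CPM values at Zfp78 were 158, 138 and 97.0 in the young samples and 187, 159, 179 and 210 in the aged samples. The groups did not overlap there, although young 1 and aged 2 lay next to each other, and the log2 fold change of 0.48 ± 0.15 (SE) had an adjusted p of 0.0747. At Zfp963 they were 58.7, 59.2 and 61.0 in young and 78.5, 69.2, 72.8 and 72.9 in aged samples (log2 fold change 0.30 ± 0.10, adjusted p = 0.0893). At Zfp866 they were 49.6, 51.1 and 41.4 in young and 66.9, 57.7, 62.6 and 65.5 in aged samples (log2 fold change 0.41 ± 0.11, adjusted p = 0.0508). That region, at chr8:69774568-69775271, also holds the start of Gm20422 and lies 16258 bp from the 5′ end of Zfp866. All 4 aged samples were above all 3 young ones at each of these 3 promoters, and none passed the test, although DESeq2 called each. Without aged 2, Zfp866 had an adjusted p of 0.0470, and without 1 sample in turn it ranged from 0.0470 to 0.134.

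The lowest levels were at Zfp300 on chromosome X with 4.54 CPM per kb, Zfp61 on chromosome 7 with 4.59 and a further region of Zfp385a at chr15:103333006-103334289 with 4.67. Zfp300 had 3.61, 3.25 and 4.28 CPM in young and 2.99, 4.31, 4.44 and 3.69 in aged samples, so the ages overlapped. The 4 aged samples at Zfp61 were all lower than the young ones, with 1.32, 2.16, 1.40 and 2.55 against 3.42, 2.61 and 2.80, and the fold change did not pass (log2 fold change -0.66 ± 0.33, adjusted p = 0.236).

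The comparison between ages asked whether promoters of this family became more or less accessible by 18 months. Of the 343 regions, 11 passed an adjusted p of 0.05, with 7 more accessible and 4 less accessible in aged liver. That is 3.21%, beside 5.74% of all regions (2.44% more and 3.30% less accessible) and 6.54% of all promoter regions (4.48% and 2.06%). At 78 regions every aged sample lay above every young one, which is 22.7%, beside 10.2% of all regions and 20.4% of promoter regions. At 26 regions every aged sample lay below, which is 7.58%, beside 11.6% and 8.88%. Of the 343 regions 2.04% were more and 1.17% less accessible. By edgeR the share called was lower than that of promoters in general, and the shares without overlap were near it. Set beside all regions, the order turned with DESeq2 and with offsets on GC content. These called 31 and 52 of the 343, beside 8.42% and 10.1% of all regions. Whether any of these shares differed was not tested. An unadjusted p under 0.05 was found at 102 regions (29.7%), beside 32.1% of all promoter regions and 24.6% of all regions. In bulk tissue, a change in the number of cells of a type and a change of signal per cell cannot be told apart. Aged samples that share an animal are not independent, which the test does not know.

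The number of calls depended on the samples and on the scaling, and the direction of the split did too. The split of 7 more and 4 less accessible became 27 and 4 with DESeq2, 47 and 5 with offsets on GC content, 3 and 5 with scaling by total counts, and 1 and 2 with offsets on mean abundance. Of all regions, 8.42% were called with DESeq2, 10.1% with offsets on GC content, 6.24% with total counts and 1.23% with offsets on mean abundance. In the main fit it was 5.74%. Without young 1 only Zfp972 of the Zfp regions passed. Without young 2, aged 1 or aged 3, only Zfp972 and Zfp532 did. Without young 3 there were 5 more and 3 less accessible regions, without aged 2 there were 13 and 3, and without aged 4 there were 8 and 6. Leaving out young 1 also reduced the calls over all regions from 3198 to 188. The share of all regions called was 0.338% without young 1, 0.801% without young 2, 0.722% without aged 1 and 1.17% without aged 3. It was 4.76% without young 3, 5.20% without aged 2 and 7.60% without aged 4.

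The family as a whole lay slightly above 0 on the log2 scale, except under scaling by total counts. The median log2 fold change was 0.10, with an interquartile range from -0.08 to 0.28, beside 0.09 over all promoter regions and -0.04 over all regions. Of the 343 regions, 226 (65.9%) had a value above 0, beside 61.1% of all promoter regions. Scaling by total counts shifted the median of all regions by -0.12 and turned the sign of the Zfp median, which was then -0.020. Relative to all regions, the Zfp median was 0.13 above under the scaling used here, 0.13 under total counts, 0.13 under DESeq2, 0.15 with offsets on GC content and under 0.01 with offsets on mean abundance.

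By sample, the median log2 CPM over the 343 regions was 4.48, 4.45 and 4.56 in the young and 4.70, 4.57, 4.64 and 4.63 in the aged samples. All aged samples lay above all young samples, with aged 2 and young 3 close together. Over all promoter regions the medians were 4.73, 4.70 and 4.73 in young and 4.83, 4.76, 4.83 and 4.80 in aged samples, again with all aged above all young. The Zfp regions took 1.99%, 1.95% and 1.99% of all counts in promoter regions in the young and 1.98%, 1.97%, 2.02% and 1.95% in the aged samples. Young samples averaged 1.98% ± 0.0256 (SD, n = 3) and aged samples 1.98% ± 0.0272 (SD, n = 4), a difference smaller than the spread. The share of all counts that fell in promoter regions of any gene was higher in 3 of 4 aged samples than in any young one, at 54.9%, 53.8% and 52.7% in young and 57.2%, 54.8%, 57.2% and 57.4% in aged samples, with aged 2 just below young 1.

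Clustered and isolated promoters had nearly equal medians. The median log2 fold change was 0.10 in 170 clustered regions and 0.10 in 135 isolated regions, and it was 0.14 in 38 paired regions. The difference of clustered minus isolated was under 0.01 in size, and under 27 alternatives it ranged from -0.03 to 0.07, with 16 above 0 and 11 below. By sample, the median log2 CPM of clustered regions was 4.20, 4.25 and 4.43 in young and 4.46, 4.40, 4.50 and 4.26 in aged liver. For isolated regions it was 4.97, 4.89 and 5.06 in young and 5.11, 4.95, 5.17 and 5.06 in aged liver. The difference between the classes was -0.77, -0.64 and -0.63 in the young and -0.65, -0.56, -0.67 and -0.80 in the aged samples, and the ages overlapped. With offsets on mean abundance the isolated median was -0.030, and with total counts the clustered median was -0.024 and the isolated one -0.020.

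Calls fell in both classes. Clustered regions had 4 more accessible and 0 less accessible, isolated regions 3 and 3, and paired regions 0 and 1, which is 2.35%, 4.44% and 2.63% called, beside 6.54% of all promoter regions. All aged samples lay above all young at 41 clustered (24.1%), 32 isolated (23.7%) and 5 paired regions (13.2%), and below at 11 (6.47%), 10 (7.41%) and 5 (13.2%), beside 20.4% above and 8.88% below over all promoter regions. In edgeR an unadjusted p under 0.05 was found at 41 clustered (24.1%), 47 isolated (34.8%) and 14 paired regions (36.8%), beside 32.1%. Whether the classes differed in these counts was not tested. Without young 1 the count was 1 in clustered regions, at Zfp972, and 0 in isolated ones.

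The direction of change went with the level of the promoter. All promoter regions were divided into 3 equal groups by mean log2 CPM. Because this level is not per kb, the groups also differed in length, with medians of 817, 1241 and 1727 bp from least to most accessible. Per kb, the median levels of these groups were 8.39, 21.4 and 37.9 CPM. The part of length in the result was not tested. In the most accessible group the log2 fold changes of the 92 Zfp regions centred on a median of 0.28, with 5 called (5.43%), all of them more accessible, and all aged samples above all young at 47 (51.1%) and below at 0. Of the 5141 promoter regions of any gene in this group, 549 were called (10.7%), 545 of them more accessible, and all aged samples were above at 44.6%. In the group between, the 138 regions had a median of 0.12, with 2 called (1.45%), both more accessible, and all aged samples above at 21.7%, beside 3.07% and 15.1% for any gene. In the least accessible group the 113 regions had a median of -0.13, with 4 called (3.54%), all of them less accessible, and all aged samples below at 24 (21.2%) and above at 1. For any gene 301 of 5141 were called there (5.85%), 282 of them less accessible, and all aged samples were below at 21.2%. Promoters of any gene had medians of 0.27, 0.09 and -0.25 in the same groups.

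The pattern was visible in the samples. Over the least accessible group, the median log2 CPM was 3.28, 3.29 and 3.38 in young and 3.26, 3.26, 3.25 and 3.02 in aged samples, so the other aged samples lay just under the young ones and aged 4 well below. Over the most accessible group it was 5.82, 5.74 and 5.63 in young and 5.99, 5.87, 6.10 and 6.04 in aged samples. The span between these groups was 2.54, 2.46 and 2.25 in young and 2.73, 2.61, 2.85 and 3.02 in aged liver, and no aged sample reached down to a young one. Both classes showed it, with medians of -0.11, 0.14 and 0.28 from the least to the most accessible clustered regions and -0.30, 0.02 and 0.29 for isolated regions. Across the 343 regions, Spearman's rho of the log2 fold change was 0.68 with the mean level and -0.11 with GC content, and all regions share the same 7 libraries. With offsets on mean abundance, which remove such a trend by construction, the Zfp medians were -0.06, 0.04 and 0.04. With total counts they were -0.25, under 0.01 and 0.16.

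Sums over marker promoters of hepatocytes and stellate cells stood apart between the ages. Promoters of hepatocyte markers, with a region at 8 of 8 genes, held a sum of 625, 710 and 711 CPM in young and 837, 782, 896 and 897 in aged samples, all aged above all young. Their most accessible gene per kb was Apoa1, an apolipoprotein of high density lipoprotein and the gene of the list that was called, with a log2 fold change of 0.53 and an adjusted p of 0.0331. Its CPM values were 173, 203 and 184 in young and 275, 215, 299.5 and 294 in aged samples, with aged 2 just above the young. Besides Apoa1 only Hnf4a had all aged samples above all young, with 71.5, 76.9 and 75.3 in young and 83.3, 88.5, 89.4 and 94.9 in aged samples, and the other 6 overlapped. The log2 fold change was above 0 at 7 of the 8 genes, with a median of 0.28. It was 0.59 at Cps1 (adjusted p = 0.0755), 0.53 at Fgb (adjusted p = 0.0569) and -0.02 at Tat. Of all promoter regions 6.54% were called, 20.4% had all aged samples above and 8.88% all below. A value above 0 was found at 61.1%. In the most accessible group of promoters 10.7% were called, 44.6% had all aged samples above and 94.1% a value above 0. Stellate cell markers had a region at 3 of 6 genes, with sums of 26.6, 24.0 and 22.7 in young and 20.6, 13.5, 13.5 and 17.2 in aged samples, all aged below all young. Most of that sum was Reln, with 21.1, 17.5 and 17.4 in young and 15.3, 10.4, 9.10 and 12.1 in aged samples (adjusted p = 0.0586). Lrat and Colec11 overlapped between the ages, and Des, Pdgfrb and Dcn had no region. Endothelial markers had 4 of 6, with sums of 67.5, 62.7 and 62.3 in young and 50.2, 50.2, 68.2 and 82.6 in aged samples, Stab2 the highest and Pecam1 and Lyve1 without a region. Cholangiocyte markers had 3 of 6, with 51.2, 43.8 and 52.0 in young and 45.9, 39.4, 40.2 and 56.9 in aged samples, Sox9 the highest and Krt19, Krt7 and Cftr without a region. Epcam, a small part of that sum, had all aged samples below all young, with 3.33, 4.38 and 3.95 in young and 2.55, 1.57, 2.10 and 2.67 in aged samples (adjusted p = 0.116). Of the macrophage markers only Clec4f had a region, 1 of 6, with 2.22, 2.65 and 2.30 in young and 1.41, 0.588, 2.80 and 1.53 in aged samples, and of the lymphocyte markers 0 of 6 had one. Levels were low at Reln, Colec11, Lrat and Epcam, with 9.74, 5.86, 4.49 and 5.44 CPM per kb. The least accessible group of promoters had a median level of 8.39 CPM per kb. In that group all aged samples were below at 21.2%, and the median log2 fold change was -0.25. Endothelial, cholangiocyte and macrophage sums overlapped between the ages. Their part in the result was not tested.

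Among the KRAB proteins that silence repeats, Zfp809 was called. Zfp809 recognises the primer binding site of retroviruses that use a proline tRNA and recruits TRIM28 to them. Its region at chr9:22225158-22226443 had 51.2, 50.4 and 40.8 CPM in young and 72.1, 57.9, 67.5 and 66.7 in aged samples. All aged samples were higher, with aged 2 the nearest to the young. Young samples averaged 47.4 ± 5.79 (SD, n = 3) and aged samples 66.0 ± 5.96 (SD, n = 4), and the log2 fold change was 0.47 ± 0.12 (SE) with an adjusted p of 0.0382. With 1 sample left out it passed without aged 2 or aged 4, and the adjusted p reached 0.114 without aged 1. Over 20 alternatives it ranged from 0.0103 to 0.296, the highest with offsets on mean abundance. Zfp708, a KRAB factor that binds the repeat RMER19B, lies in the large cluster of chromosome 13. Its region at chr13:67080732-67082255, at an internal start 16482 bp from the 5′ end, had 52.9, 52.9 and 45.7 in young and 63.2, 67.5, 66.8 and 65.5 in aged samples. The ages were well apart, and the adjusted p of 0.0524 for a fold change of 0.37 ± 0.11 missed the threshold, which it passed with DESeq2 and with offsets on GC content.

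The factors that guard imprints did not pass in the main test. Zfp57, which keeps DNA methylation at imprinting control regions, was among the least accessible members, with 3.15, 2.49 and 2.14 CPM in young and 1.05, 1.57, 2.33 and 1.53 in aged samples at chr17:37002394-37002811. Aged 3 lay among the young samples and the other aged ones below them (log2 fold change -0.77 ± 0.35, adjusted p = 0.188). Zfp445, which acts beside Zfp57 at imprints, has 3 regions. The most accessible, at chr9:122865569-122866599, had 11.4, 14.5 and 15.9 in young and 18.5, 18.6, 19.6 and 11.5 in aged samples. Aged 4 was next to the lowest young sample there (log2 fold change 0.29 ± 0.20, adjusted p = 0.409). A further region at chr9:122854689-122856554, picked after its values were seen, had 9.81, 14.1 and 14.0 in young and 23.0, 16.7, 23.1 and 10.7 in aged samples. Aged 4 lay among the young there and the other aged ones above (log2 fold change 0.54 ± 0.25, adjusted p = 0.193). It was called without aged 4, with 0.0333, and in the replicate block, with 0.0351, in a range from 0.0333 to 0.474 over 20 alternatives, the highest without young 1. The remaining region, at chr9:122856848-122857197, had 2.78, 3.70 and 6.74 in young and 5.01, 6.86, 8.40 and 3.18 in aged samples, overlapping (log2 fold change 0.43 ± 0.36, adjusted p = 0.494). Zfp568, which represses a placental transcript of Igf2, had 49.5, 47.5 and 47.0 in young and 52.4, 52.4, 55.1 and 52.8 in aged samples. These differences were small but the ages did not overlap (log2 fold change 0.14 ± 0.10, adjusted p = 0.407).

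Among the other clustered genes, 3 were called, Zfp972, Zfp983 and Zfp524. Zfp972 on chromosome 2 had the largest increase of the family. Its region at chr2:177925203-177926430 had 11.9, 16.7 and 9.70 CPM in young and 27.5, 27.7, 32.0 and 27.5 in aged samples. The aged samples were close together and far above the young ones, with means of 12.8 ± 3.60 (SD, n = 3) and 28.7 ± 2.22 (SD, n = 4). The log2 fold change was 1.12 ± 0.18 (SE) with an adjusted p of 0.00889, and it passed under all 20 alternatives, with adjusted p from 5.59e-06 to 0.0472. The region has 6 near-identical copies elsewhere in the genome, up to 98.5% identical, and how many reads were lost or misplaced between the copies is not known from the counts. Zfp983 in the cluster of chromosome 17, with 1 such copy, had 28.5, 25.2 and 24.3 in young and 36.5, 39.2, 43.9 and 39.1 in aged samples at chr17:21650071-21651465. Every aged sample was well above the young ones, with means of 26 ± 2.2 (SD, n = 3) and 39.7 ± 3.09 (SD, n = 4), a log2 fold change of 0.60 ± 0.12 and an adjusted p of 0.0175. Among the fits without 1 sample it passed without young 3, aged 2 or aged 4, and the highest adjusted p without 1 sample was 0.0756, without young 2. The range over 20 alternatives was 0.00154 to 0.0805, the highest with offsets on mean abundance.

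Zfp524 stands in a cluster of chromosome 7. Its region at chr7:5014229-5016130 also holds the starts of Fiz1 and Gm44973, so the counts cannot be assigned to any of these genes alone. The region had 96.3, 81.6 and 69.9 CPM in young and 117, 98.8, 116 and 127 in aged samples. Aged 2 was barely above young 1, and the others were clearly higher. The means were 82.6 ± 13.2 (SD, n = 3) and 115 ± 11.8 (SD, n = 4), with a log2 fold change of 0.47 ± 0.13 and an adjusted p of 0.0485. It passed only without aged 2 among the fits that leave out 1 sample, where the adjusted p ranged from 0.0372 to 0.142, the highest without young 2. Over all 20 alternatives it ranged from 0.0149 to 0.469, the highest with offsets on mean abundance.

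Isolated genes with increases were Zfp143, Zfp189 and Zfp385a. Zfp143 encodes an activator that binds many promoters, among them those of small nuclear RNA genes. Its region at chr7:110060537-110062465 had 85.6, 90.1 and 67.7 CPM in young and 119, 99.8, 105 and 125 in aged samples. Young 3 was lowest, and aged 2 the lowest of the aged samples, still above all young ones. The means were 81.2 ± 11.8 (SD, n = 3) and 112 ± 11.7 (SD, n = 4), with a log2 fold change of 0.47 ± 0.13 and an adjusted p of 0.0475. Of the fits without 1 sample it passed without aged 2, with a range from 0.0411 to 0.126, the highest without aged 1. Its range over 20 alternatives was 0.0121 to 0.486, again highest with offsets on mean abundance.

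Zfp189 shares its region at chr4:49520447-49521747 with the start of Mrpl50, which encodes a protein of the mitochondrial ribosome. The CPM values were 45.3, 47.5 and 43.7 in young and 61.8, 54.3, 61.6 and 62.9 in aged samples. Young samples were tight, and aged 2 was the lowest of the aged. The means were 45.5 ± 1.92 (SD, n = 3) and 60.2 ± 3.93 (SD, n = 4), with a log2 fold change of 0.40 ± 0.11 and an adjusted p of 0.0438. It passed without aged 2, with a range from 0.0382 to 0.132 without 1 sample, the highest without young 1. Over the alternatives it ranged from 0.0114 to 0.400, with offsets on mean abundance the highest. Zfp385a, a target of p53, was called at an internal start at chr15:103323130-103324313, not at the 5′ end of the gene. The CPM values were 39.5, 41.8 and 45.1 in young and 58.2, 55.7, 63.3 and 67.1 in aged samples, and each aged sample was well above the young ones. The means were 42.1 ± 2.78 (SD, n = 3) and 61.1 ± 5.09 (SD, n = 4), with a log2 fold change of 0.54 ± 0.11 and an adjusted p of 0.0191. When 1 sample was left out it passed without young 3, aged 2 or aged 4, and the adjusted p reached 0.0877 without young 1. The alternatives ranged from 0.00140 to 0.156, the latter with offsets on mean abundance. A further region of the gene, at chr15:103333006-103334289, had 9.44, 7.60 and 4.77 in young and 3.25, 3.53, 6.30 and 7.13 in aged samples. The ages overlapped there (log2 fold change -0.57 ± 0.31, adjusted p = 0.280). The region at the 5′ end, chr15:103339757-103340385, had 6.29, 6.39 and 4.44 in young and 5.01, 4.71, 5.60 and 3.31 in aged samples, overlapping too (log2 fold change -0.33 ± 0.26, adjusted p = 0.451).

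The printed promoters are the 5 called members for which the RefSeq table held a sequence inside a region with more accessibility in aged liver, and they show what the increased promoters look like in letters. Each runs from 250 bases before to 50 after a RefSeq start on build GRCm38.p6, 5′ to 3′ on the strand of the gene. Capitals mark the letters GGGCGG or CCAAT or CCGGAA or AANATGGC, or their reverse complements, where they occur, out of 8 motifs searched on both strands. Zfp972 lies at chr2:177925601-177925900 on the minus strand, Zfp983 at chr17:21650361-21650660 on the plus strand and Zfp809 at chr9:22225453-22225752 on the plus strand. Zfp143 lies at chr7:110061452-110061751 and Zfp189 at chr4:49520926-49521225, both on the plus strand. All 5 hold CCAAT, with 3 matches in Zfp972 and 2 in Zfp143. CCGGAA occurs in Zfp972, Zfp983 and Zfp189, GGGCGG 2 times in Zfp143 and AANATGGC in Zfp809.
Zfp972: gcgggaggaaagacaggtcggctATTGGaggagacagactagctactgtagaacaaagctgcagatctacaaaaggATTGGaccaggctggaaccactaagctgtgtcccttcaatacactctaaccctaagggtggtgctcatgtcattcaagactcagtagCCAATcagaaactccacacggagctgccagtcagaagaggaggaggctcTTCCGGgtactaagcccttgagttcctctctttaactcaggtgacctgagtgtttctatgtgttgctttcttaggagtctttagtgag
Zfp983: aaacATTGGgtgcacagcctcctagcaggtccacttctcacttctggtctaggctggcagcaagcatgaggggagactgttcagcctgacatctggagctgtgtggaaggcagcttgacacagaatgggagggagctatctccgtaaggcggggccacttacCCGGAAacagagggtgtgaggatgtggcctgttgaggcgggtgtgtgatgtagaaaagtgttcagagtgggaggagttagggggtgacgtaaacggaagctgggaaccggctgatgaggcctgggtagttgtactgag
Zfp809: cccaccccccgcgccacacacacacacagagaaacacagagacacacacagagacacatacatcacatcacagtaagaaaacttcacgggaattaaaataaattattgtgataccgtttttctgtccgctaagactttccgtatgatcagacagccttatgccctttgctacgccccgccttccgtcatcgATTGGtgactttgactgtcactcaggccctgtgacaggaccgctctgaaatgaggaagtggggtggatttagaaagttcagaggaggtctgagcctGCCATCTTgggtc
Zfp143: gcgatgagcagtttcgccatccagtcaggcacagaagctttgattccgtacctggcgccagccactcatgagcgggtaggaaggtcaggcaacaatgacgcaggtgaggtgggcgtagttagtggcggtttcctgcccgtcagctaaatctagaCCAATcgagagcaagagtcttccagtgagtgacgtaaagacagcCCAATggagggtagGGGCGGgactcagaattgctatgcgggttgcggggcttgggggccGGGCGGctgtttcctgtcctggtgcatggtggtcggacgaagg
Zfp189: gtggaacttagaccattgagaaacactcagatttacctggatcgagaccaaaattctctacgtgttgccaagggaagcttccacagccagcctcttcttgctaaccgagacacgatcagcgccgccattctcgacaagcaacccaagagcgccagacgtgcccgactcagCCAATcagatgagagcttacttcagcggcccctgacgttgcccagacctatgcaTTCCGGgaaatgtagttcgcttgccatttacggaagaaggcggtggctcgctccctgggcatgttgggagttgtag

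The 4 regions with decreases were all in the least accessible group. Zfp9, in a pair on chromosome 6, had the largest decrease, with 14.5, 12.7 and 15.5 CPM in young and 7.91, 5.88, 3.27 and 7.76 in aged samples at chr6:118478835-118479734. Aged 3 was lowest, and no aged sample came near the young ones. The means were 14.2 ± 1.42 (SD, n = 3) and 6.21 ± 2.16 (SD, n = 4), with a log2 fold change of -1.13 ± 0.24 and an adjusted p of 0.0204. Of the fits that leave out 1 sample it passed without young 3, aged 2 or aged 4, and over 20 alternatives the adjusted p ranged from 0.00199 to 0.0781, the highest without young 1.

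Zfp651 on chromosome 9 was called at both of its regions, which lie side by side near the 5′ end of the gene. With 1 region per Zfp gene, 3 regions were less accessible. At chr9:121757707-121759423 CPM were 16.8, 15.4 and 19.2 in young and 10.9, 9.02, 8.87 and 9.93 in aged samples. The aged samples were all lower, with means of 17.2 ± 1.95 (SD, n = 3) and 9.68 ± 0.935 (SD, n = 4), a log2 fold change of -0.80 ± 0.17 and an adjusted p of 0.0201. At chr9:121759601-121760283 they were 7.68, 8.16 and 7.23 in young and 3.07, 2.94, 2.33 and 5.85 in aged samples. Aged 4 was the nearest to the young samples, with means of 7.69 ± 0.465 (SD, n = 3) and 3.55 ± 1.57 (SD, n = 4), a log2 fold change of -1.08 ± 0.29 and an adjusted p of 0.0420. With 1 sample left out the call at the former region held without young 3, aged 2 or aged 4, and over 20 alternatives its adjusted p ranged from 0.00588 to 0.0778, the highest without young 1. The call at the latter, when 1 sample was left out, held without aged 4 alone, where the adjusted p was 0.00623, and the highest value was 0.133, without young 2. Over the 20 alternatives it passed in 9 and reached 0.165 with offsets on mean abundance. The promoter of Zfp651 at chr9:121759783-121760082, plus strand, build GRCm38.p6 from RefSeq, is shown as an example of a promoter with a decrease. It holds 46 CpG and has a GC content of 78.7%, with 4 matches to GGGCGG, of which 2 overlap, and 1 to CCAAT in capitals. The 5 promoters with increases held from 4 CpG, in Zfp972, to 18, in Zfp143.
Zfp651: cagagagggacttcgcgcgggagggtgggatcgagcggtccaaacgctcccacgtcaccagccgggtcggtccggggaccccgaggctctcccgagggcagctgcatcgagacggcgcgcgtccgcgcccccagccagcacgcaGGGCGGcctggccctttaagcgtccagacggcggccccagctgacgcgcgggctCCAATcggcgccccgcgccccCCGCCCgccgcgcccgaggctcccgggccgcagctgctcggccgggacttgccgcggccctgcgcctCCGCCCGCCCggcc

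Over all 32851 RefSeq promoter sequences of this length, GGGCGG occurred in 35.7%, CCAAT in 37.4%, TATAAA in 13.6%, CCGGAA in 14.9%, TGCGCA in 7.76%, CACGTG in 7.15%, TGACGTCA in 1.79% and AANATGGC in 6.05%. The family had 379 sequences for 313 of the 376 symbols. Those overlapping an accessible region numbered 317, of 14153 overall. Among these, Zfp promoters held CCGGAA in 38.2% beside 27.1%, CCAAT in 46.7% beside 37.6% and AANATGGC in 12.6% beside 8.05%. They held GGGCGG in 46.1% beside 62.8%, CACGTG in 5.68% beside 10.1%, TATAAA in 5.36% beside 6.87%, TGCGCA in 12.3% beside 13.5% and TGACGTCA in 4.73% beside 2.97%. Over all Zfp sequences, GGGCGG was in 35.7% of clustered and 53.1% of isolated promoters, and CCAAT in 49.1% and 37.0%. The shares were 35.7% and 32.1% for CCGGAA, 14.0% and 10.5% for AANATGGC, 12.3% and 7.41% for TGCGCA, 8.19% and 5.56% for CACGTG, 5.85% and 7.41% for TATAAA, and 4.68% and 3.70% for TGACGTCA. A match is only the presence of letters. Regions with CCAAT had a median fold change of 0.15 (log2) and those without 0.08. In the same order the medians were 0.15 and 0.09 for CCGGAA, 0.13 and 0.10 for AANATGGC, 0.11 and 0.11 for GGGCGG, 0.10 and 0.11 for CACGTG, 0.06 and 0.11 for TATAAA, 0.04 and 0.13 for TGCGCA, and 0.015 and 0.11 for TGACGTCA, with 13 to 134 regions holding a motif. None of these differences was tested.

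The promoters with the highest levels per kb are shown for their letters in the same way, from RefSeq build GRCm38.p6, with the same motifs and TGCGCA in capitals. Zfp78 lies at chr7:6363058-6363357 on the plus strand, Zfp963 at chr8:69749913-69750212 and Zfp866 at chr8:69774862-69775161, both on the minus strand. Each holds GGGCGG, Zfp963 and Zfp866 also CCAAT, Zfp78 also TGCGCA and Zfp866 also AANATGGC. Their CpG counts were 13, 9 and 13.
Zfp78: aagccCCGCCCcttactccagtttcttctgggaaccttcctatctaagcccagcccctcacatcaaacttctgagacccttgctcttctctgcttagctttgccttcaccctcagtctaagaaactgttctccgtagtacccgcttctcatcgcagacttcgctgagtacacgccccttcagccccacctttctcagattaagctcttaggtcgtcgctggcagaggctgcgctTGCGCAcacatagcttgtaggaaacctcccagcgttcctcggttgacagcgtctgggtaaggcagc
Zfp963: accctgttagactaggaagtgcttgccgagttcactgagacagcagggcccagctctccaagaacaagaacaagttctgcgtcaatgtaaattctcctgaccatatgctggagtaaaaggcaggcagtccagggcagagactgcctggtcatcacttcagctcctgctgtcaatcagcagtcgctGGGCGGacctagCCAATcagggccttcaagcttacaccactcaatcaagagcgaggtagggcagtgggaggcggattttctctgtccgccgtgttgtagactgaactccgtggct
Zfp866: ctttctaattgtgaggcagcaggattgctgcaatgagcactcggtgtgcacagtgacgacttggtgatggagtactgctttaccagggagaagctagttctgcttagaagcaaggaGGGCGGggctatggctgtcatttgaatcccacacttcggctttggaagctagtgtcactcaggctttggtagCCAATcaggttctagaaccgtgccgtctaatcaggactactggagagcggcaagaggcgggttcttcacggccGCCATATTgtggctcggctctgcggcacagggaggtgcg

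Zfp532 on chromosome 18 had the decrease that passed under the most alternatives. Its region at chr18:65580438-65582266 had 21.8, 18.4 and 17.9 CPM in young and 8.08, 9.61, 11 and 9.42 in aged samples. The ages were far apart, with means of 19.4 ± 2.09 (SD, n = 3) and 9.52 ± 1.18 (SD, n = 4), a log2 fold change of -1.04 ± 0.17 and an adjusted p of 0.00963. It passed under 19 of 20 alternatives and had 0.0583 without young 1, with a range from 0.000124 to 0.0583.

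Chromosome 13 held the largest cluster, 23 genes from 67061170 to 67813740, of which 22 had a region and Zfp459 had none. Of its 23 regions 11 were above 0 in log2 fold change and 0 were called by edgeR, with 4 at an unadjusted p under 0.05 (17.4%, beside 32.1% of all promoter regions) and 2 called by DESeq2, Zfp708 and Zfp874a. DESeq2 called 8.42% of all regions, and edgeR 6.54% of all promoter regions. The median of the cluster was -0.01. All aged samples were above at 4 of its regions (17.4%) and below at 1 (4.35%), beside 20.4% and 8.88% of all promoter regions. The highest log2 fold change was 0.39 at Zfp874a, with 41.8, 38.1 and 37.2 CPM in young and 48.5, 46.5, 55.6 and 54.0 in aged samples. All aged samples were higher there and the adjusted p was 0.0599. The lowest was -0.28 at Zfp759, with 12.5, 10.7 and 13.5 in young and 10.1, 12, 9.81 and 8.27 in aged samples. The ages overlapped at aged 2 (adjusted p = 0.384). The GC content of the cluster was low, with a median of 48.3%, and so was its level, 15.5 CPM per kb.

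Chromosome 7 held 7 clusters with 5 or more regions, 6 of them with a median above 0, and whether clusters differed was not tested. The largest, 15 genes from 29768552 to 30169750 that include Zfp568, had 16 regions with a median of 0.08, from -0.67 at Zfp382 to 0.43 at Zfp84. Of these regions 7 (43.75%) had an unadjusted p under 0.05, beside 32.1% of all promoter regions. All aged samples were above at 6 (37.5%) and below at 3 (18.75%), beside 20.4% and 8.88%. Zfp84 had 28.5, 27.2 and 33.2 CPM in young and 38.8, 43.0, 41.8 and 35.6 in aged samples (adjusted p = 0.0568). Zfp382 had 7.22, 6.35 and 6.25 in young and 4.66, 2.75, 4.90 and 4.20 in aged samples (adjusted p = 0.116). The ages did not overlap in either gene, with opposite directions. Zfp84 passed with DESeq2, with offsets on GC content, with aged 2 and 4 summed, in the replicate block, without young 3 and without aged 4, and its adjusted p ranged from 0.0374 to 0.192 with 1 sample left out. The cluster of 12 genes from 24081924 to 24587641 had 10 regions and the lowest median of the 15 clusters with 5 or more regions, -0.21. Of these regions 0 were called and 2 (20.0%) had an unadjusted p under 0.05. In this cluster 6 regions belong to the least accessible group, where promoters of any gene had a median of -0.25. It ran from -0.66 at Zfp61 to 0.29 at Zfp112, which had 58.4, 51.6 and 43.1 in young and 58.7, 59.8, 71.7 and 61.3 in aged samples (adjusted p = 0.171). Aged 1 and young 1 were level at Zfp112.

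The other 5 clusters of chromosome 7 with 5 or more regions had medians above 0. That from 127233061 to 127615797 had 8 regions, all above 0, with a median of 0.12, from 0.04 at Zfp629 to 0.28 at Zfp553, which shares its region with Sept1. That from 12818858 to 12977848 had 5 regions and a median of 0.33, from -0.26 at Zfp329 to 0.38 at Zfp446. Zfp446 had 80.8, 81.9 and 58.7 in young and 97.3, 80.2, 102 and 105 in aged samples, so aged 2 lay among the young (adjusted p = 0.112). The cluster with Zfp524, from 4915217 to 5051538, had 6 regions, a median of 0.10 and its lowest value, -0.29, at Zfp580. The cluster from 6155997 to 6383295 had 7 regions and a median of 0.16 with a wide spread, from -0.90 at Zfp583 to 0.57 at the weaker of 2 regions of Zfp444. Zfp583 had 6.11, 3.89 and 1.81 in young and 2.2, 1.18, 2.33 and 2.80 in aged samples, and young 3 lay among the aged ones (adjusted p = 0.164). That region of Zfp444, at an internal start at chr7:6183547-6184853, had 18.3, 16.4 and 9.87 in young and 20.1, 23.5, 22.4 and 23.8 in aged samples, with young 3 far below the rest (adjusted p = 0.0868). The more accessible region of the gene, at its 5′ end, stood at 0.16 in log2 fold change, with an adjusted p of 0.430. The weaker region of Zfp444 and that of Zfp446 were called with offsets on GC content. The cluster from 27689340 to 28014115 had 6 regions, 5 above 0 and a median of 0.07. Its largest value was at Zfp607b, with 47.3, 47.7 and 42.4 in young and 58.7, 58.2, 60.2 and 60.1 in aged samples (log2 fold change 0.37 ± 0.10, adjusted p = 0.0526). The 4 aged samples were tight and apart from the young, and DESeq2 called it. Its lowest, Zfp974, was at -0.05.

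Outside these chromosomes, 2 clusters chosen after their values were seen stood at the upper end. That of chromosome 8 from 69625548 to 69791178, with Zfp963 and Zfp866, had all aged samples above all young at 5 of 5 regions, a median of 0.36 and a median level of 55.8 CPM per kb. Its count of calls by edgeR was 0, with 4 at an unadjusted p under 0.05 and 2 called by DESeq2, Zfp963 and Zfp866. DESeq2 called 8.42% of all regions. In level, 3 regions of the cluster belong to the most accessible group of promoters and 2 to the group between. For any gene, all aged samples were above at 44.6% and 15.1% of the regions of these groups. An unadjusted p under 0.05 was found at 52.3% and 19.3% of them, and at 32.1% of all promoter regions. That of chromosome 9 from 22071376 to 22307648, with Zfp809, had 6 regions and the highest median of the 15 clusters, 0.41. In level, 4 of its regions belong to the least accessible group and 2 to the most accessible. It ran from -0.40 at Zfp599 to 0.69 at a region of Zfp872. An unadjusted p under 0.05 was found at 2 of its regions (33.3%, beside 32.1% of all promoter regions). All aged samples were above at 2 (33.3%) and below at 0, beside 20.4% and 8.88%. Of those 15 clusters, 12 had a median above 0.

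The family name also covers RNA-binding proteins without C2H2 fingers. Zfp36, Zfp36l1 and Zfp36l2 bind AU-rich elements and hasten the decay of mRNA. Zfp36 had 50.5, 57.8 and 51.5 CPM in young and 53.9, 73.0, 79.8 and 87.3 in aged samples. Aged 1 lay among the young samples and the other aged ones above (log2 fold change 0.46 ± 0.15, adjusted p = 0.0791). Zfp36l1 had 105, 103 and 97.2 in young and 122, 117, 145 and 153 in aged samples (log2 fold change 0.39 ± 0.12, adjusted p = 0.0645). Zfp36l2 had 136, 131 and 108 in young and 142, 140, 182 and 180 in aged samples (log2 fold change 0.36 ± 0.13, adjusted p = 0.113). In both, the aged samples fell into a lower pair, 1 and 2, and a higher pair, 3 and 4, all above the young. Without aged 2, Zfp36l1 passed with 0.0453, in a range to 0.164 with 1 sample left out. DESeq2 called Zfp36 and Zfp36l1, and offsets on GC content called Zfp36l1 and Zfp36l2.

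The other 11 isolated genes of known function had log2 fold changes from -0.12 to 0.37 at their most accessible regions. None passed, with 1 at an unadjusted p under 0.05, Zfp91. Of all promoter regions 6.54% passed and 32.1% had such a p. Zfp91, a ubiquitin ligase, shares its region with the start of Lpxn. It had 121, 116 and 75.5 CPM in young and 130, 113, 145 and 152 in aged samples. Aged 2 overlapped the young (log2 fold change 0.37 ± 0.16, adjusted p = 0.169). Zfp281, a repressor of pluripotency genes, had 52.1, 52.8 and 48.3 in young and 47.6, 46.7, 47.4 and 59.1 in aged samples. Aged 4 was above all and the other aged ones below all (log2 fold change -0.03 ± 0.12, adjusted p = 0.919). Zfp423, a factor of fat cell development, had 26.8, 26.1 and 27.0 in young and 25.3, 29.6, 28.7 and 26.9 in aged samples, overlapping (log2 fold change 0.05 ± 0.12, adjusted p = 0.842). The log2 fold change was -0.12 at Zfp148, 0.06 at Zfp207, 0.22 at Zfp217, 0.22 at Zfp609, 0.17 at Zfp335, 0.00 at Zfp638, 0.12 at Zfp516 and -0.02 at Zfp521. At these regions only Zfp609 had all aged samples above all young. It had 44.8, 46.8 and 50.8 in young and 59.2, 56.3, 51.1 and 52.9 in aged samples, with aged 3 next to young 3. Over all promoter regions the aged samples were above at 20.4%. A further region of Zfp217, at chr2:170132794-170133803, had them above too, with 22.8, 17.2 and 21.4 in young and 23.8, 23.5, 23.6 and 27.5 in aged samples (log2 fold change 0.28 ± 0.15, adjusted p = 0.259). Of the 20 genes of the list of known roles with a region, 2 were called at their most accessible region, Zfp809 and Zfp143, and 16 were above 0. Of all promoter regions, 6.54% were called and 61.1% were above 0. By level, 23.5%, 65.6% and 94.1% of them were above 0 from the least to the most accessible group.

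Features of the proteins and regions were compared by counts and medians. Regions of genes with a KRAB-like stretch, 183 of them, had a median of 0.09 in log2 fold change, with 3 more and 1 less accessible (2.19% called), and the 160 others 0.12, with 4 and 3 (4.38%). Of all promoter regions 6.54% were called. Isolated genes with the stretch had 29 regions with 0 called by edgeR and 11 with an unadjusted p under 0.05 (37.9%, beside 32.1% of all promoter regions). By fingers, the medians were 0.10 at 0 to 5 fingers (70 regions), 0.14 at 6 to 10 (104), 0.09 at 11 to 15 (108) and 0.04 at 16 or more (61). Regions with a near-identical copy elsewhere numbered 16, or 4.66%, beside 1.56% of all promoter regions, with 10 clustered, 4 paired and 2 isolated. Their median was 0.19 and 2 were called (12.5%), Zfp972 and Zfp983. A start of another protein-coding gene lay in 33 regions, with a median of 0.20 and 2 calls (6.06%), Zfp524 and Zfp189. The called regions of Zfp983, Zfp143 and Zfp532 and the region of Zfp651 at chr9:121759601-121760283 hold the start of a noncoding gene. Without regions that hold another coding start there were 5 more and 4 less accessible, and without those that hold a start of any other gene 3 and 2.

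The list of co-repressors and of genes that act on methylation of lysine 9 of histone H3 includes the demethylases Kdm4a, Kdm4b and Kdm4c and Rsl1, itself a KRAB protein gene. It had regions at 30 of 30 genes, of which 2 were more and 0 less accessible (6.67% called, beside 6.54% of all promoter regions), with a median log2 fold change of 0.19 and 23 above 0 (76.7%, beside 61.1%). Resf1, a partner of SETDB1, had 20.6, 25.7 and 28.3 CPM in young and 35.5, 32.9, 37.6 and 35.1 in aged samples, and all aged were above all young (log2 fold change 0.51 ± 0.13, adjusted p = 0.0422). Kdm4a, a demethylase of lysine 9 of histone H3, had 63.5, 67.5 and 52.0 in young and 87.6, 72.6, 84.5 and 108 in aged samples, all above the young (log2 fold change 0.53 ± 0.14, adjusted p = 0.0435). Trim28 had 82.7, 88.3 and 94.4 in young and 97.8, 124, 116 and 105 in aged samples. No aged sample overlapped, and it did not pass (log2 fold change 0.32 ± 0.12, adjusted p = 0.106), except with offsets on GC content. Setdb1 had 8.24, 9.18 and 11.2 in young and 11.2, 11, 10.3 and 10.6 in aged samples, with the ages overlapping (log2 fold change 0.19 ± 0.19, adjusted p = 0.558). The count of 2 was 5 with offsets on GC content, 1 with offsets on mean abundance, 0 with total counts and 0 without young 1, young 2, aged 1 or aged 3, and 1 without young 3 or aged 4. Of all regions, 10.1% were called with offsets on GC content, 1.23% with offsets on mean abundance and 6.24% with total counts. Without 1 sample, from 0.338% to 7.60% of all regions were called. With 1 sample left out the adjusted p ranged from 0.0299 to 0.167 at Resf1 and from 0.0313 to 0.107 at Kdm4a. In the other zinc finger families, edgeR called 2 of 47 Zbtb regions and 0 of 10 Zscan, 8 Zkscan, 15 Klf and 18 Zc3h regions, with 14, 3, 3, 7 and 4 regions at an unadjusted p under 0.05. For Zbtb that is 4.26% called and 29.8% at an unadjusted p under 0.05, beside 6.54% and 32.1% of all promoter regions. Their medians were 0.16, 0.16, 0.18, 0.24 and 0.11. The called ones, known only after their values were seen, were Zbtb20 (log2 fold change 0.48 ± 0.11, adjusted p = 0.0269) and Zbtb7b (log2 fold change 0.52 ± 0.13, adjusted p = 0.0332), both more accessible.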

How the data were processed

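Deposited raw counts per consensus region, made by the authors, were used for all 3 young and 4 aged samples. Per the study's methods the authors trimmed reads with cutadapt 1.13, aligned them to GRCm38 with Bowtie2 2.4.1, called peaks with MACS2 2.2.7 and counted reads with featureCounts. Reads with low mapping quality were removed, so regions with near-identical copies lose ambiguous reads. Counts of all 55680 regions were fitted in edgeR 4.0.16 on R 4.3.3 with TMM scaling, age as the only factor, the quasi-likelihood test and Benjamini-Hochberg adjustment over all regions at 0.05. No region was filtered. CPM, counts scaled to a common total, use the TMM library sizes. Log2 values use a prior count of 2.

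Transcript starts came from GENCODE M21 and promoter sequences from RefSeq on GRCm38.p6. Chromosome 4 from 145000001 to 148000000 was left out. Copies were aligned with minimap2 2.31 and counted at 80% coverage and 95% identity. Finger and KRAB-like patterns were searched in translated coding sequences with Biopython 1.88. Named genes were the called regions, the 3 highest and 3 lowest per kb, a list with known roles, the largest increase and decrease in each cluster of 5 or more regions on chromosomes 7 and 13, called co-repressor genes, Trim28 and Setdb1. Lists of co-repressors and genes of lysine 9 methylation, cell type markers and other zinc finger families were also used. The members and lists were chosen with earlier results of these data known.

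Alternatives were DESeq2 1.42.0, total counts, offsets on GC content or mean abundance, filters on low counts, summing each pair of aged samples, a replicate block, leaving out each sample, a threshold of 0.01, a window of 1000 bp, coding transcripts only, members without copies or without starts of other genes, 1 region per gene, and neighbour distances of 100 or 500 kb.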

Additional observations from a re-analysis of the deposited data

Results flagged for a closer look

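In 7 of 65 sets of 4 aged values, 1 aged sample stood apart from the other three by the ratio of its gap to the whole range, and chance gives this in about 1 in 20 sets. The ratio was 0.961 at Zfp972, where aged 3 had 5.01 log2 CPM and the others 4.79 to 4.80. It was 0.864 at Zfp189, where aged 2 had 5.77 and the others 5.95 to 5.98. At Zfp445 it was 0.895, with aged 4 at 3.54 and the others at 4.23 to 4.31. At Zfp568 it was 0.8293, with aged 3 at 5.79 and the others at 5.72 to 5.73. At Zfp281 it was 0.915, with aged 4 at 5.89 and the others at 5.55 to 5.58. At Zfp335 it was 0.884, with aged 4 at 6.00 and the others at 5.73 to 5.76. For the median over the least accessible group of Zfp promoters it was 0.954, with aged 4 at 3.02 and the others at 3.25 to 3.26. Aged 4 was the sample apart in 4 of the 7. The cause was not tested.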

How the results depend on the processing

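The 7 more accessible Zfp promoter regions became 27 with DESeq2, 47 with offsets on GC content, 1 with offsets on mean abundance, 3 with total counts, 3 with at least 10 counts in every sample, 1 at a threshold of 0.01 and 3 without regions that hold a start of any other gene, coding or noncoding. Leaving out coding starts alone gave 5. With a pair of aged samples summed, as if from the same animal, they were 2 for aged 1 and 3, 3 for aged 2 and 3, 20 for aged 2 and 4, and 3 for aged 3 and 4. Without 1 sample they ranged from 1 to 13. Of all regions, 8.42% were called with DESeq2, 10.1% with offsets on GC content and 1.23% with offsets on mean abundance. The share was 5.74% in the main fit, 6.24% with total counts and 2.80% with at least 10 counts. It was 1.73% with aged 1 and 3 summed, 3.24% with 2 and 3, 8.52% with 2 and 4, and 3.87% with 3 and 4. Without 1 sample it ranged from 0.338% to 7.60%. The 4 less accessible regions became 2 with offsets on mean abundance, 1 at 0.01, 2 without starts of any other gene and 4 without other coding starts, and without 1 sample ranged from 0 to 6. The cause was not tested. Fewer regions tested and fewer samples are part of the construction of some of these settings.

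The 2 called genes in the list of co-repressors and genes of lysine 9 methylation became 5 with offsets on GC content, 1 with offsets on mean abundance, 0 with total counts, 0 with at least 10 counts and 0 at 0.01. They were 1 with aged 1 and 2 summed and 0 with aged 1 and 3, 1 and 4, 2 and 3 or 3 and 4 summed. Without 1 sample they ranged from 0 to 2. Of all regions, 10.1% were called with offsets on GC content, 1.23% with offsets on mean abundance and 6.24% with total counts. The share was 2.80% with at least 10 counts. With these pairs of aged samples summed it ranged from 1.73% to 5.62%, and without 1 sample from 0.338% to 7.60%.

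The median log2 fold change of 0.10 over Zfp regions was 0.16 with offsets on GC content, 0.014 with offsets on mean abundance and -0.020 with total counts. For clustered regions it was -0.024 with total counts, and for isolated regions -0.030 with offsets on mean abundance and -0.020 with total counts. The cause was not tested.

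The replicate block gave 10 more and 5 less accessible regions and 1 called gene of that list. Sample numbers do not pair young and aged animals, and same numbers correlated at -0.12, 0.06 and 0.03, with the highest value, 0.23, between young 1 and aged 4. At single named regions, 913 alternative values stayed on the same side of the threshold, 113 no longer passed and 31 came to pass. Of the 913, 866 kept the sign of the log2 fold change and 47, at 13 regions, did not. None of these 47 was at a region called in either fit. Counts were few at regions such as Zfp57, with 66 in the deepest sample, where the median Zfp promoter held 573. Whether depth limited the result there was not tested.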
